A study of Mus musculus with 40 samples.

Results

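The primitive endoderm genes described here are 10 genes: the transcription factor genes *Gata6*, *Gata4*, *Sox17*, *Sox7* and *Hnf4a*, the receptor genes *Pdgfra* and *Fgfr2*, the endocytic adaptor gene *Dab2*, and the basement membrane genes *Col4a1* and *Lamb1*. They were chosen by name, as genes known for their use in the primitive endoderm, but with earlier results of these data known. Counts of them beside the share of all genes are therefore descriptions and not tests of the list. They were looked up by Ensembl identifier among the 56748 genes of the deposited gene counts. All 10 were found, and all 10 were among the 23399 genes with enough reads to be tested. The study sequenced total RNA from 40 libraries of male (XY) mouse embryonic stem cells, called mES cells, and epiblast-like cells (EpiLCs) made from these. The mES cells were held in the naive state, in serum-free medium, by LIF, 3 µM CHIR99021 (a GSK3 inhibitor) and 1 µM PD0325901 (a MEK inhibitor). EpiLCs, a culture form of the epiblast about the time of implantation, were given FGF (20 ng/mL) and Activin A (12 ng/mL) and harvested at 48 h, as were the mES cells. The 4 genotypes were wild type (WT), loss of the lamin B receptor (LBRKO), loss of every lamin, with *Lmna*, *Lmnb1* and *Lmnb2* deleted (TKO), and TKO with *Lbr* disrupted as well (QKO). Each stage had 8 WT libraries and 4 of each mutant.

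The mutants differ in how they were made, which limits what a group stands for. The TKO line and the WT line came from littermate embryos, *Lbr* was cut by Cas9 in exon 2, and the QKO cells were a single clone derived from the TKO line. No other QKO clone survived. By the study this clone carried a frameshift deletion and an in-frame deletion in *Lbr*, and no LBR was detected in it by immunostaining. A library came from its own culture well, so p-values here measure the spread between wells and not between independently made lines. The labels do not give the LBRKO clone of a library. By the study's karyotypes the lines were not fully euploid, and an extra chromosome 8, which carries *Col4a1*, was found in the TKO line and in some of the WT cells.

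The primitive endoderm is the second lineage that the inner cell mass of the blastocyst gives rise to, beside the epiblast, and it goes on to form the visceral and parietal endoderm of the yolk sacs. FGF signalling through FGFR1 and FGFR2 and the MEK and ERK kinases drives cells of the inner cell mass towards it, and GATA6 and NANOG oppose each other in that choice. GATA6 comes first, PDGFRA, SOX17, GATA4 and SOX7 follow, and the matured endoderm makes DAB2, HNF4A and a thick basement membrane of laminin and type IV collagen. Naive mES cells and EpiLCs both belong to the epiblast side, and in both these genes are thought of as genes of another fate. In the culture used here MEK was inhibited in mES cells, while EpiLCs received FGF.

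The cultures carried the markers of their labelled stages. The 6 naive markers (*Zfp42*, *Klf4*, *Tfcp2l1*, *Esrrb*, *Prdm14*, *Nr0b1*) summed to between 2859 and 4092 CPM (counts per 1e6, scaled to the TMM-adjusted library size) in mES cells of all genotypes, against 64.0 to 76.1 CPM in WT EpiLCs. In EpiLCs that sum was 182 to 286 CPM for LBRKO and 135 to 164 CPM for QKO, with *Esrrb*, *Nr0b1* and *Zfp42* past the test used for the genes themselves in both. The 4 epiblast markers (*Fgf5*, *Pou3f1*, *Otx2*, *Dnmt3b*) summed to at most 211 CPM in mES cells and to 2205 to 3840 CPM in EpiLCs. By genotype the EpiLC sums were 3150 to 3840 CPM in WT, 3068 to 3321 in TKO, 2523 to 2859 in LBRKO and 2205 to 2318 in QKO. LBRKO and QKO thus lay below every WT library, though none of the 4 markers passed against WT in EpiLCs of any mutant. Libraries held 22.6 to 48.9 M counted reads (M, 1e6), so that 1 read was worth 0.0209 to 0.0441 CPM. *Lmnb1* fell from 515 ± 21.0 CPM (SD, n = 8) in WT mES cells to 8.47 ± 0.261 in TKO and 13.8 ± 1.49 in QKO (n = 4 each). *Lbr* messenger RNA, in which the Cas9 cut leaves most of the transcript to be counted, was at 372 ± 20.6 CPM in WT mES cells and 237 ± 1.49 in QKO. In LBRKO mES cells *Lbr* stood at 274 and 253 CPM in replicates 1 and 2 and at 145 and 162 in replicates 3 and 4, so these libraries form 2 pairs by *Lbr* level. In LBRKO EpiLCs the levels were 403, 392, 196 and 233 CPM in replicates 1 to 4, of which the first 2 lie within the WT EpiLC range (364 to 513).

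**Figure D1:**
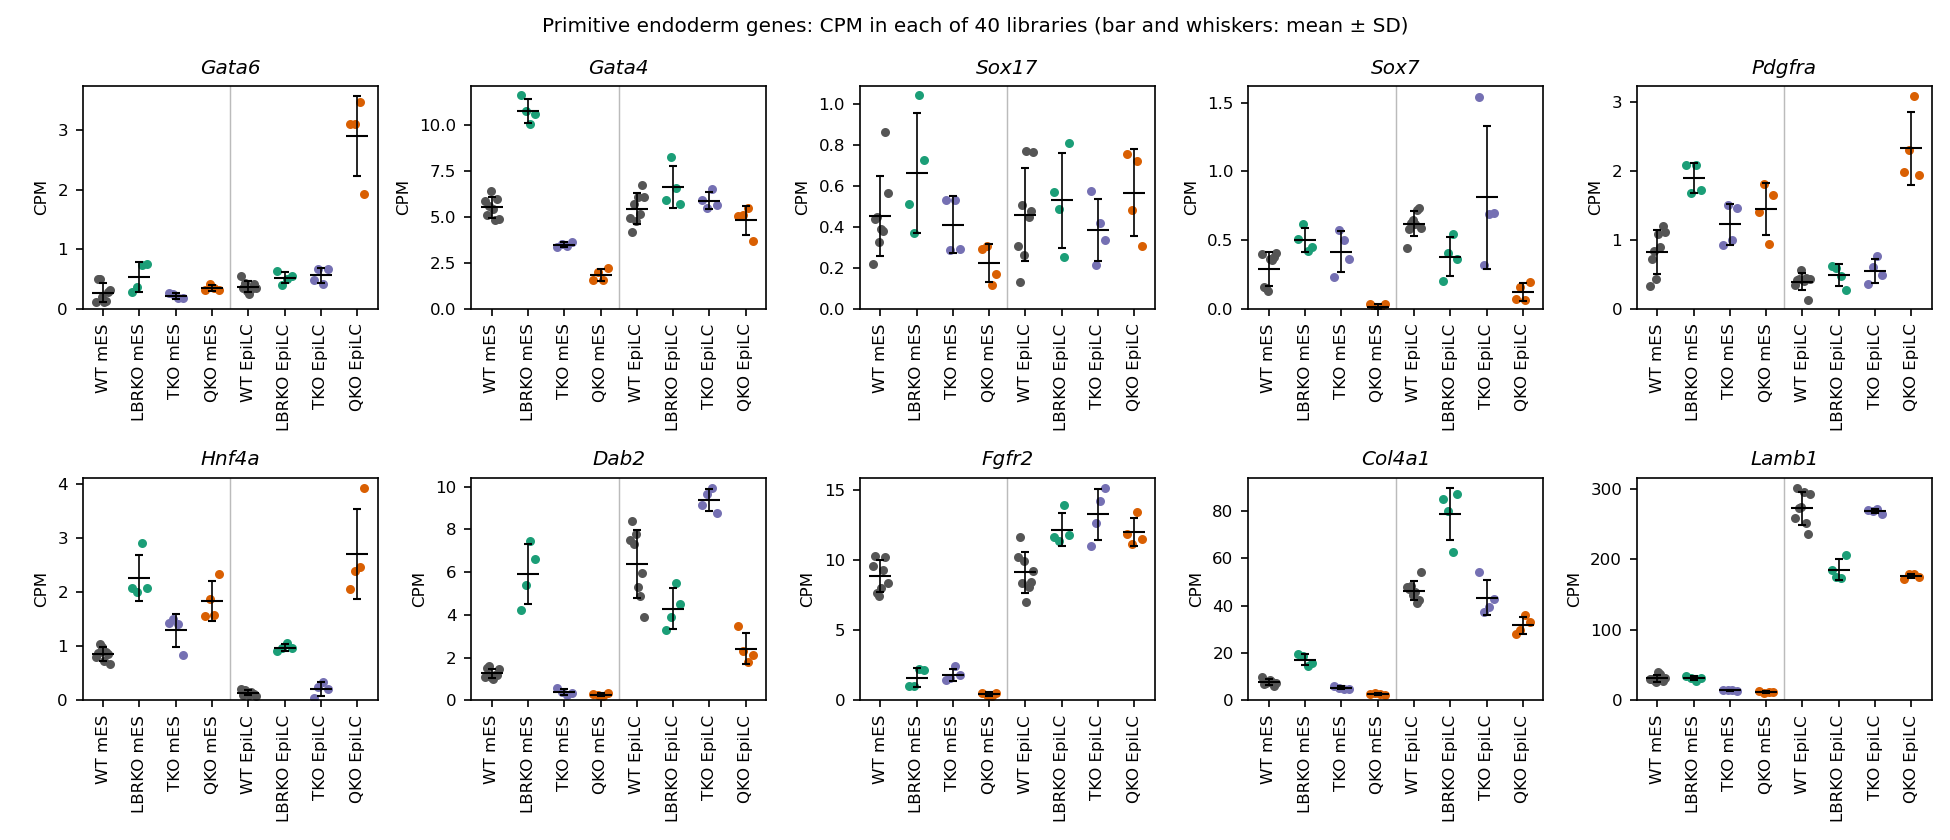
Level of each of the 10 genes in each of the 40 libraries, in CPM on linear axes that start at 0. Points are libraries, bars and whiskers are the mean ± SD of a group (8 WT libraries, 4 of each mutant), and the vertical line parts mES cells from EpiLCs. *Gata6* in QKO EpiLCs (1.93 to 3.47 CPM) lay above every other library, and *Sox7* in QKO mES cells was at 0 or 1 read a library.

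Most of the transcription factor and receptor genes were low throughout, and the matrix genes were not. Per kilobase of exon, the order in WT mES cells was *Lamb1* (3.17 ± 0.488 CPM per kb, SD, n = 8), *Gata4* (1.42 ± 0.145), *Col4a1* (1.03 ± 0.155), *Fgfr2* (0.859 ± 0.111), *Hnf4a* (0.177 ± 0.0253), *Dab2* (0.172 ± 0.0303), *Sox17* (0.0949 ± 0.0405), *Sox7* (0.0887 ± 0.0374), *Pdgfra* (0.0821 ± 0.0318) and *Gata6* (0.0415 ± 0.0248). Neighbours whose means were closer than the larger of their SDs were *Hnf4a* and *Dab2*, *Sox17* and *Sox7*, and *Sox7* and *Pdgfra*. *Gata4* was the highest of the transcription factor genes, at a level per kb above that of *Col4a1*. In WT EpiLCs *Lamb1* led with 27.4 ± 2.34 CPM per kb, then came *Col4a1* (6.21 ± 0.552), *Gata4* (1.40 ± 0.216), *Fgfr2* (0.885 ± 0.142) and *Dab2* (0.869 ± 0.217), and last stood *Hnf4a* (0.0284 ± 0.00954). *Fgfr2* and *Dab2* were closer than their SDs there, as were *Sox17* and *Gata6*, and *Pdgfra* and *Hnf4a*.

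The 8 WT libraries of each stage were compared first, for the unperturbed passage from naive to primed pluripotency. A gene counts as changed here when its Benjamini-Hochberg adjusted p in edgeR's quasi-likelihood test, over all genes tested, was under 0.05 and its fold change over 2. Of the 10 genes 4 rose (18.2% of all genes tested did), 2 fell (12.9% did) and 4 passed in neither direction. *Lamb1* encodes the laminin β1 chain, the subunit that primitive endoderm laminin shares with other basement membranes. It ranged from 26.0 to 39.9 CPM (median 30.2) in the 8 WT mES libraries and from 235 to 301 (median 273) in the 8 WT EpiLC libraries, with a log2 fold change of 3.11 ± 0.07 (SE) and an adjusted p of 1.30e-33. *Col4a1*, the type IV collagen α1 chain, ranged from 5.96 to 9.92 CPM (median 7.47) before and from 41.0 to 54.3 (median 46.3) after, a log2 fold change of 2.60 ± 0.09. For both genes every EpiLC library lay several fold above every mES library. Ranges were separate between the stages for 35.4% of all genes tested. *Dab2*, an adaptor of clathrin-mediated uptake and a hallmark of the absorptive endoderm, ranged from 1.02 to 1.61 CPM (median 1.18) in mES cells and from 3.92 to 8.37 (median 6.63) in EpiLCs (2.33 ± 0.16).

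*Hnf4a*, the nuclear receptor of visceral endoderm and liver, went the other way. It ranged from 0.678 to 1.04 CPM (median 0.868) in WT mES cells and from 0.0876 to 0.205 CPM (median 0.128, 3 to 7 reads a library) in WT EpiLCs, a log2 fold change of -2.65 ± 0.23 with an adjusted p of 1.05e-13. The ranges were well apart. *Pdgfra*, the receptor for PDGF-A that marks primitive endoderm precursors, ranged from 0.326 to 1.19 CPM (median 0.864) and then from 0.130 to 0.558 (median 0.425), with overlap (-1.08 ± 0.24). That call rested on WT replicates 5 to 8: with replicates 1 to 4 alone the log2 fold change was -0.40 (edgeR adjusted p = 0.301). *Sox7*, a SOX factor of early and parietal endoderm, rose from 0.131 to 0.407 CPM (median 0.360) to 0.444 to 0.736 (median 0.622), at 1.06 ± 0.28, and at 0.82 with WT replicates 5 to 8 alone (adjusted p = 0.0587). *Gata6*, *Gata4*, *Sox17* and *Fgfr2* did not pass, at 0.45 ± 0.27, -0.01 ± 0.10, 0.03 ± 0.31 and 0.04 ± 0.12. The 95% intervals of *Gata4* (-0.21 to 0.19) and *Fgfr2* (-0.21 to 0.29) leave out a 2-fold change either way, and that of *Gata6* (-0.10 to 1.00) reaches 1.00.

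**Figure D2:**
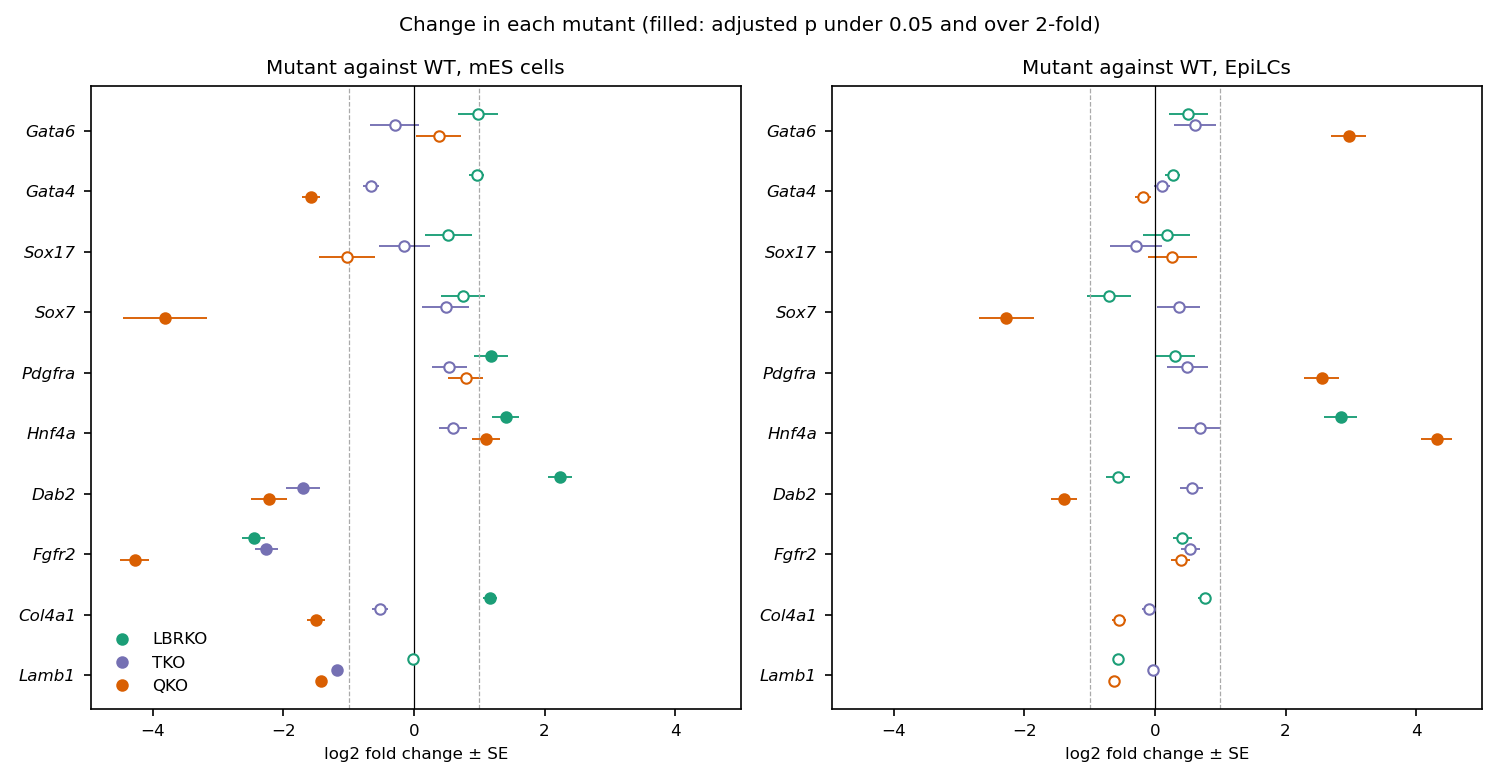
Log2 fold change ± SE of the 10 genes in each mutant against WT, in mES cells (left) and EpiLCs (right). Filled points passed an adjusted p under 0.05 and a 2-fold change (dashed lines). In QKO mES cells 6 genes lie filled on the left, and in QKO EpiLCs *Gata6*, *Pdgfra* and *Hnf4a* lie filled on the right.

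Each mutant was then set against WT at both stages, to ask what loss of LBR, of the lamins or of both does to these genes. In mES cells 4 of the 10 rose and 1 fell in LBRKO (3.06% and 3.25% of all genes did), none rose and 3 fell in TKO (2.68% and 3.77%), and 1 rose and 6 fell in QKO (10.6% and 6.66%). The medians over the 10 log2 fold changes were 0.97, -0.41 and -1.46 for LBRKO, TKO and QKO, where the medians over all genes were 0.02, -0.01 and 0.01. Ranges of all libraries were separate from WT for 14%, 14.3% and 28.1% of all genes in LBRKO, TKO and QKO mES cells, and for 13.1%, 9.21% and 37.5% in EpiLCs. In EpiLCs 1 rose and none fell in LBRKO (3.04% and 2.63%), none passed in TKO (1.44% and 1.48%), and 3 rose and 2 fell in QKO (13% and 8.16%). In TKO EpiLCs 2 of the 10 had an adjusted p under 0.05 in edgeR, *Fgfr2* (0.54 ± 0.15, adjusted p = 0.00804) and *Dab2* (0.56 ± 0.18, adjusted p = 0.0257), both under 2-fold. In DESeq2 likewise none of the 10 passed both thresholds in TKO EpiLCs. The 4 genotypes are taken gene by gene in what follows, from the transcription factors to the matrix. These are bulk libraries, in which fewer cells of a type and less RNA per cell cannot be told apart. The study reports a moderate loss of cells in LBRKO and TKO EpiLC cultures and a severe one in QKO. The mutant EpiLC libraries are thus of the cells that survived, and the part of this in the changes was not tested.

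*Gata6* (chromosome 18), the zinc finger factor that starts the primitive endoderm program, rose in QKO EpiLCs. It stood at 3.10, 3.10, 3.47 and 1.93 CPM (69 to 106 reads) in QKO replicates 1 to 4, against 0.247 to 0.547 CPM (median 0.353) in the 8 WT EpiLC libraries. Even the lowest QKO library was over 3 times the highest WT library. The log2 fold change was 2.96 ± 0.27 (edgeR adjusted p = 3.83e-12), and against TKO EpiLCs, at 0.421 to 0.675 CPM, it was 2.35 ± 0.34. LBRKO and TKO EpiLCs did not pass (0.51 ± 0.30 and 0.62 ± 0.32), and QKO exceeded the sum of the 2 log2 changes by 1.84 ± 0.46 (adjusted p = 0.00224). In QKO mES cells, the same clone before the passage, *Gata6* was at 0.309 to 0.421 CPM and did not pass (0.38 ± 0.35). In LBRKO mES cells replicates 3 and 4, those with less *Lbr*, had 0.743 and 0.751 CPM, and replicates 1 and 2 had 0.277 and 0.368 (group change 0.98 ± 0.31, adjusted p = 0.0157, just under 2-fold). Without replicate 1 of LBRKO the change was 1.18, past 2-fold. Exons of *Gata6* share 1154 bases with those of the antisense gene *Gata6os* in GENCODE M39, the source of all exon overlaps given here. The reads were counted on M30. Without the strand setting of the counting, reads of shared bases cannot be told apart.

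*Gata4* (chr14:63436362-63509141, minus strand, GRCm39) and *Sox7* (chr14:64181006-64188352, plus strand) lie within a megabase of each other, and both fell in QKO mES cells. *Gata4*, the GATA factor that follows GATA6, was at 1.59, 2.03, 1.57 and 2.23 CPM in QKO mES cells and at 4.83 to 6.44 CPM (median 5.52) in WT (-1.57 ± 0.14, adjusted p = 1.62e-12). TKO mES cells sat between, at 3.37 to 3.65 CPM (-0.66 ± 0.13, under 2-fold), and LBRKO mES cells sat above all of them, at 10.1 to 11.6 CPM (0.96 ± 0.12, under 2-fold but with no overlap). The 4 genotypes thus had *Gata4* ranges that did not touch, in the order LBRKO, WT, TKO, QKO. QKO fell below the sum of the LBRKO and TKO changes by -1.88 ± 0.19 (adjusted p = 5.67e-10). In EpiLCs no genotype passed: LBRKO 0.27 ± 0.12, TKO 0.11 ± 0.12 and QKO -0.18 ± 0.12, with all 20 libraries between 3.67 and 8.25 CPM.

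*Sox7* was nearly lost from QKO mES cells. The 4 libraries had 1, 0, 0 and 1 read, against 4 to 18 reads (0.131 to 0.407 CPM) in WT and 7 to 17 reads (0.231 to 0.571 CPM) in TKO. Summed over libraries, the WT level was 16.9 times that of QKO mES cells (95% exact Clopper-Pearson interval, counting error only, 4.54 to 142), and the edgeR adjusted p was 4.27e-06. Against TKO the summed ratio was 23.3 (6.12 to 198), with an adjusted p of 4.14e-06. In QKO EpiLCs *Sox7* was at 0.0720, 0.160, 0.0655 and 0.196 CPM (2 to 7 reads), below all WT EpiLC libraries (0.444 to 0.736 CPM), at -2.27 ± 0.42 (adjusted p = 1.22e-05). LBRKO and TKO passed at neither stage (0.75 ± 0.33 and 0.49 ± 0.36 in mES cells, -0.71 ± 0.34 and 0.36 ± 0.33 in EpiLCs). TKO EpiLC replicate 1 (1.54 CPM) was above the other TKO libraries (0.320 to 0.697). Without it the QKO change beyond the sum of LBRKO and TKO in EpiLCs lost its call (-1.44, adjusted p = 0.0551, against -1.93 with it).

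The 250 bases upstream of the start of the canonical transcript are shown for *Sox7* and *Fgfr2* (GRCm39, gene strand, 5′ to 3′). These were the genes lower in QKO than in TKO mES cells by both thresholds. *Gata4* (log2 fold change -0.91) and *Col4a1* (-0.97) were lower there too, under 2-fold. Capitals mark SOX letters (ACAAT) on either strand.
Sox7, chr14:64180756-64181005, plus strand: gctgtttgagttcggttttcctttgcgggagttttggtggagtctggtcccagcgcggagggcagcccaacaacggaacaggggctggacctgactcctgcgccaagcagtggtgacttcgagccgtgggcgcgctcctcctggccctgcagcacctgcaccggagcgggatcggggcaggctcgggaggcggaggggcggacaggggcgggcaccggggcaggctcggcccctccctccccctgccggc
Fgfr2, chr7:129868273-129868522, minus strand: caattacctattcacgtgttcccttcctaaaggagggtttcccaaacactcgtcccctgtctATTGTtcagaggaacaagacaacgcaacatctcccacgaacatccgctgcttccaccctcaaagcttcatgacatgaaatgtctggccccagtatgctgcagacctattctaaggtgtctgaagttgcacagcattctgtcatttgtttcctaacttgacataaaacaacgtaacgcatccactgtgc
*Fgfr2* held SOX letters once and the *Sox7* stretch did not. SOX letters occurred in 26.9% of the same stretch of 21757 protein-coding genes. The *Sox7* stretch had 20 CpG dinucleotides and 70.8% GC, where *Fgfr2* had 7 and 46.4% GC (median of all genes 8 CpG and 53.2% GC). These matches are letters in a window and were not tested as sites.

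*Sox17* (chr1:4561151-4567784, minus strand), a SOX factor needed in primitive endoderm, passed in no mutant against WT. In mES cells it ranged from 0.217 to 0.863 CPM (median 0.412) in WT and stood at 0.292, 0.306, 0.118 and 0.172 CPM in QKO, with overlap. Its fall there, at -1.02 ± 0.43, just missed the adjusted threshold (edgeR adjusted p = 0.0519) and just made it in DESeq2 (-1.03, adjusted p = 0.0491). In EpiLCs the changes were 0.18 ± 0.36, -0.29 ± 0.40 and 0.27 ± 0.37 in LBRKO, TKO and QKO. With 3 to 49 reads a library these intervals are wide, and the 95% interval in QKO EpiLCs (-0.49 to 1.02) reached a 2-fold rise. *Sox17* shares 1011 exon bases with the antisense gene *Gm37587*.

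*Hnf4a* (chr2:163348728-163414830, plus strand) rose in LBRKO and in QKO at both stages. In EpiLCs QKO libraries had 2.05, 2.40, 2.46 and 3.92 CPM and LBRKO libraries 0.908, 0.971, 1.07 and 0.958 CPM, against 0.0876 to 0.205 in WT and 0.0441 to 0.344 (1 to 9 reads) in TKO. QKO, LBRKO and the pair of WT and TKO formed 3 separate ranges. The log2 fold changes against WT were 4.31 ± 0.24 for QKO (adjusted p = 8.87e-19), 2.84 ± 0.25 for LBRKO (6.18e-12) and 0.69 ± 0.33 for TKO (0.203). The excess of QKO over the sum of the others did not pass the adjusted threshold (0.78 ± 0.42, edgeR adjusted p = 0.180). In mES cells LBRKO stood at 2.07, 2.00, 2.91 and 2.08 CPM (1.40 ± 0.20) and QKO at 1.56, 1.88, 1.57 and 2.33 (1.10 ± 0.21), above all WT libraries (0.678 to 1.04). The QKO call in mES cells was lost with WT replicates 1 to 4 alone (0.99) and without QKO replicate 4 (0.97). Without TKO replicate 4 (0.840 CPM) the other TKO libraries were at 1.41 to 1.5 CPM. The TKO group change was under 2-fold (0.60 ± 0.22, adjusted p = 0.0427).

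*Pdgfra* (chr5:75311994-75358876, plus strand), the receptor gene of the early lineage, rose in QKO EpiLCs. It stood at 1.98, 2.30, 3.08 and 1.93 CPM there, against 0.130 to 0.558 (median 0.425) in WT, 0.277 to 0.613 in LBRKO and 0.353 to 0.765 in TKO. As with *Gata6*, every QKO library was above all 16 other EpiLC libraries. The change was 2.56 ± 0.27 against WT (adjusted p = 1.12e-10) and 2.06 ± 0.33 against TKO, and exceeded the sum of the LBRKO and TKO changes by 1.75 ± 0.45 (adjusted p = 0.00313). In mES cells *Pdgfra* rose in LBRKO, at 2.09, 1.68, 2.08 and 1.73 CPM against 0.326 to 1.19 in WT (1.18 ± 0.26), a call that fell under 2-fold with WT replicates 5 to 8 alone (0.82). QKO mES cells had 0.943 to 1.80 CPM (0.79 ± 0.27, adjusted p = 0.0147, under 2-fold), and 1.31 with WT replicates 1 to 4 alone. *Pdgfra* shares 456 exon bases with the antisense gene *Gm42802*.

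*Fgfr2* (chr7:129763471-132725079, minus strand), a receptor for FGF4 in the inner cell mass, fell in the mES cells of every mutant. WT mES libraries ranged from 7.43 to 10.3 CPM (median 8.86). LBRKO had 1.04, 1.03, 2.25 and 2.15 CPM, TKO 1.49, 1.61, 2.45 and 1.83, and QKO 0.552, 0.383, 0.314 and 0.549. No mutant library was above 2.45 CPM, and LBRKO replicates 1 and 2, those with more *Lbr*, were the lower LBRKO pair. The log2 fold changes were -2.45 ± 0.18 (adjusted p = 2.27e-14), -2.26 ± 0.18 (2.72e-13) and -4.27 ± 0.22 (1.25e-19), and QKO was below TKO by -2.01 ± 0.26 (7.80e-08). On the log2 scale the difference of the QKO change from the sum of the others did not pass (0.44 ± 0.32, edgeR adjusted p = 0.420). In EpiLCs no mutant was below WT: WT had 7.0 to 11.7 CPM, LBRKO 11.4 to 13.9, TKO 11.0 to 15.2 and QKO 11.2 to 13.5, with changes of 0.42 ± 0.15, 0.54 ± 0.15 and 0.39 ± 0.15, all under 2-fold.

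**Figure D3:**
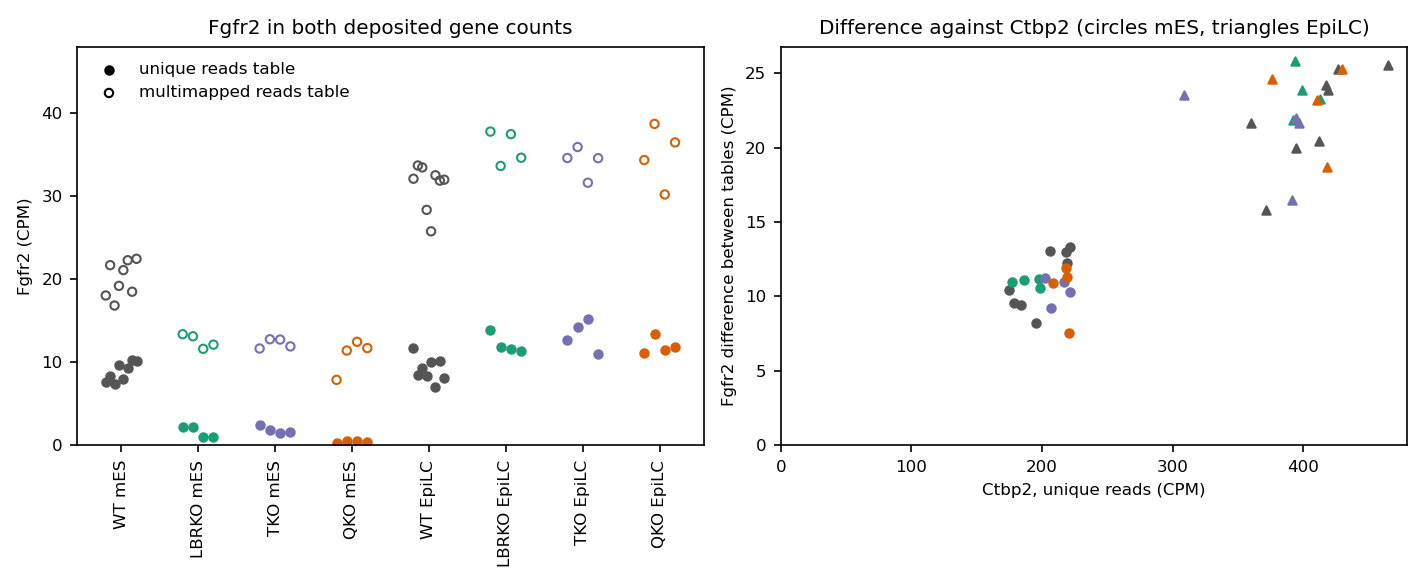
Left: *Fgfr2* in each library by counts of uniquely mapped reads (filled) and by the deposited counts that allow multimapped reads (open), both in CPM of the same library sizes. Right: the difference between the counts against the *Ctbp2* level in the same library (circles mES cells, triangles EpiLCs, colours as on the left). The difference was larger in EpiLCs, where *Ctbp2* was higher, and was 4.82% to 5.94% of the *Ctbp2* level in every group.

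The 2 deposited gene counts give different sizes for this fall. By the study's methods they also differ in the counting program, featureCounts for unique reads and TEcount for multimapped reads. The part of multimapped reads alone was not tested. With multimapped reads allowed, *Fgfr2* was at 20.0 ± 2.14 CPM in WT mES cells, 12.6 ± 0.831 in LBRKO, 12.3 ± 0.571 in TKO and 10.9 ± 2.04 in QKO, and the changes shrank to -0.67, -0.71 and -0.86 (adjusted p = 2.14e-07, 1.14e-07 and 4.96e-10), under 2-fold. The amount added was nearly the same in the 4 genotypes, 10.4 to 11.2 CPM on average in mES cells and 20.9 to 23.7 CPM in EpiLCs. In GENCODE M39 *Fgfr2* reaches to 132725079 on chromosome 7, where its exons share 314 bases with those of *Ctbp2*. Whether they do in M30, the annotation counted, was not tested. *Ctbp2*, a corepressor gene on the same strand, had group means of 190 to 216 CPM in mES cells and 373 to 409 CPM in EpiLCs. In every group the amount added was 4.82% to 5.94% of the *Ctbp2* level. That reads of *Ctbp2* are the amount added was not tested.

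A second readout of *Fgfr2*, from uniquely mapped reads in its introns, fell as well. Counts over transposable element (TE) copies that lie in introns of a single gene and off all exons were summed by gene. Reads that reach from such a copy into an exon could count in both measures. For *Fgfr2* (108 copies, taken from the span of its canonical transcript) this sum was 0.716 ± 0.629 CPM in WT mES cells, 0.247 ± 0.124 in LBRKO, 0.0904 ± 0.0223 in TKO and 0.118 ± 0.0981 in QKO. The log2 fold changes were -1.54 ± 0.51, -2.94 ± 0.66 and -2.60 ± 0.64 (edgeR adjusted p = 0.0430, 0.00116 and 5.17e-04), where the medians over the 15475 genes with such a sum were 0.31, 0.29 and 0.85. Of those genes 1.48%, 1.32% and 1.62% fell. WT libraries ranged widely, from 0.0654 to 2.13 CPM.

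*Dab2* (chr15:6329269-6470196, plus strand) moved in opposite directions in the mES cells of LBRKO and of TKO. LBRKO libraries had 4.24, 5.4, 7.47 and 6.61 CPM, TKO 0.562, 0.393, 0.236 and 0.365, and QKO 0.292, 0.230, 0.196 and 0.343, against 1.02 to 1.61 CPM (median 1.18) in WT. LBRKO lay wholly above WT, and TKO and QKO wholly below. The changes were 2.23 ± 0.18 for LBRKO (adjusted p = 9.95e-13), -1.70 ± 0.26 for TKO (2.16e-06) and -2.22 ± 0.28 for QKO (1.55e-08). The difference of QKO from TKO did not pass (-0.52 ± 0.36, edgeR adjusted p = 0.334). QKO fell short of the sum of the LBRKO and TKO changes by -2.75 ± 0.41 (1.46e-06). In EpiLCs QKO had 3.49, 2.30, 1.80 and 2.10 CPM, all below WT (3.92 to 8.37), at -1.39 ± 0.20 (1.28e-07). LBRKO EpiLCs were at 3.27 to 5.50 CPM (-0.56 ± 0.18) and TKO, above every WT library, at 8.78 to 9.94 (0.56 ± 0.18), both under 2-fold. The WT EpiLC libraries were themselves split, with replicates 1 to 4 at 7.30 to 8.37 CPM and replicates 5 to 8 at 3.92 to 5.96.

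*Col4a1* (chr8:11248423-11362826, minus strand), on the chromosome found in an extra copy in the TKO line, rose in LBRKO mES cells and fell in QKO mES cells. LBRKO had 19.6, 18.7, 14.5 and 15.8 CPM and QKO 2.73, 3.18, 2.63 and 2.30, against 5.96 to 9.92 (median 7.47) in WT and 4.74 to 6.14 in TKO. The changes were 1.17 ± 0.11 (adjusted p = 1.31e-11), -1.50 ± 0.13 (2.74e-12) and, for TKO, -0.52 ± 0.12 (0.00106, under 2-fold). QKO fell short of the sum of the LBRKO and TKO changes by -2.14 ± 0.19 (7.00e-12). In EpiLCs LBRKO was again above all WT libraries and QKO below them, each under 2-fold: LBRKO at 62.9 to 87.1 CPM (0.77 ± 0.10), WT at 41.0 to 54.3, TKO at 37.4 to 54.3 (-0.10 ± 0.10) and QKO at 28.1 to 36.0 (-0.55 ± 0.11). *Col4a1* lies head to head with *Col4a2*, with which it shares 311 exon bases on the opposite strand. The part of the extra chromosome 8 in any of these changes was not tested.

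*Lamb1* (chr12:31315030-31379658, plus strand) fell in mES cells without lamins, whether or not *Lbr* was disrupted. TKO had 14.1, 14.2, 14.4 and 13.1 CPM and QKO 12.9, 10.8, 11.2 and 12.2, against 26.0 to 39.9 (median 30.2) in WT and 27.5 to 34.6 in LBRKO. The changes were -1.17 ± 0.09 for TKO (adjusted p = 6.05e-14), -1.41 ± 0.09 for QKO (8.70e-17) and -0.01 ± 0.08 for LBRKO, whose 95% interval (-0.17 to 0.15) leaves out a change of that size. TKO and QKO were not told apart at the adjusted threshold (-0.24 ± 0.10, adjusted p = 0.0854). In EpiLCs the split was another one. LBRKO (174 to 206 CPM) and QKO (172 to 179 CPM) lay below all WT libraries (235 to 301 CPM), at -0.56 ± 0.08 and -0.63 ± 0.08, under 2-fold, and TKO (264 to 270 CPM) lay among them (-0.02 ± 0.08). *Lamb1* shares 514 exon bases with the antisense gene *Gm61290* and 303 with *Dld*.

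**Figure D4:**
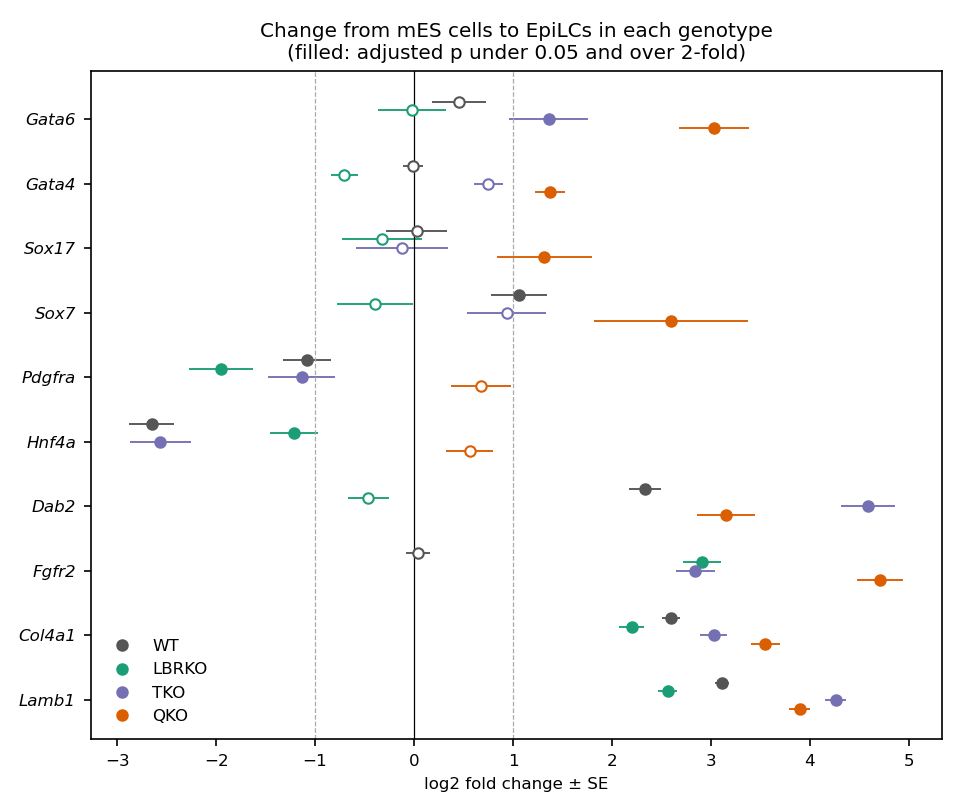
Log2 fold change ± SE of the 10 genes from mES cells to EpiLCs within each genotype. Filled points passed an adjusted p under 0.05 and a 2-fold change (dashed lines). In QKO 8 of the 10 genes rose and none fell, against 4 and 2 in WT.

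Since the mutants start from other levels than WT, the passage itself was compared between genotypes. Within QKO 8 of the 10 genes rose from mES cells to EpiLCs and none fell (17.7% and 12.6% of all genes did), within TKO 5 rose and 2 fell (17.2% and 13.1%), and within LBRKO 3 rose and 2 fell (15.3% and 11.2%). The difference in passage from WT was tested as an interaction. It was higher in QKO for *Gata6* (2.58 ± 0.45, adjusted p = 1.35e-05), *Hnf4a* (3.21 ± 0.33), *Pdgfra* (1.76 ± 0.39), *Fgfr2* (4.67 ± 0.26) and *Gata4* (1.39 ± 0.18) and lower for none (6.94% and 5.69% of all genes). With multimapped reads allowed the *Fgfr2* value was 1.05. Of these, *Gata4* and *Fgfr2* passed against WT in mES cells, where they were lower, and not in EpiLCs. *Gata6* and *Pdgfra* passed in EpiLCs, where they were higher, and not in mES cells. *Hnf4a*, which fell in the other 3 genotypes, had a change of 0.56 ± 0.24 in QKO, under 2-fold. *Sox17* passed within QKO (1.32 ± 0.48), a call lost without any 1 of 4 libraries (QKO mES replicates 3 and 4 and EpiLC replicates 1 and 3, adjusted p = 0.0544 to 0.0691), and its interaction did not pass (1.29 ± 0.57, adjusted p = 0.0865).

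In TKO the passage was higher for *Fgfr2* (2.80 ± 0.23), *Dab2* (2.26 ± 0.31) and *Lamb1* (1.15 ± 0.12) and lower for none (1.88% and 1.15% of all genes). The *Fgfr2* call was lost with multimapped reads allowed (0.84), and that of *Lamb1* fell just under 2-fold with WT replicates 1 to 4 alone (1.00). These 3 are the genes that were low in TKO mES cells, and none of them passed in TKO EpiLCs. *Dab2* went from 0.389 ± 0.134 CPM to 9.38 ± 0.520 CPM in TKO, a log2 fold change of 4.59 ± 0.27. In LBRKO it was higher for *Fgfr2* (2.87 ± 0.22) and *Hnf4a* (1.44 ± 0.33) and lower for *Dab2* (-2.79 ± 0.27) and *Sox7* (-1.46 ± 0.48, adjusted p = 0.0292), against 3.12% and 2.88% of all genes. There too *Fgfr2* was under 2-fold with multimapped reads allowed (0.87). *Dab2* in LBRKO was 5.93 ± 1.41 CPM before and 4.30 ± 0.947 after, already in mES cells near the level that WT cells reached as EpiLCs. The *Sox7* call was lost without replicate 1 or 2 of LBRKO mES cells (-1.43 and -1.31, adjusted p = 0.0542 and 0.0702) and without replicate 1 or 4 of LBRKO EpiLCs (-1.23 and -1.41, adjusted p = 0.0976 and 0.0602).

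QKO was also set against TKO, the line it was made from, which leaves the disruption of *Lbr*, in a single clone, as the engineered difference. In mES cells *Fgfr2* and *Sox7* fell and none rose (2.12% and 4.09% of all genes did). With multimapped reads allowed *Fgfr2* did not pass there (-0.16, edgeR adjusted p = 0.323). In EpiLCs *Gata6*, *Pdgfra* and *Hnf4a* rose (9.97% of all genes did) and *Dab2* and *Sox7* fell (5.29% did), with *Hnf4a* at 3.63 ± 0.30, *Dab2* at -1.96 ± 0.22 and *Sox7* at -2.63 ± 0.45. Beyond the sum of LBRKO and TKO, none of the 10 rose and 4 fell in mES cells (4.1% and 3.4% of all genes), and *Gata6* and *Pdgfra* rose while *Col4a1* (-1.22 ± 0.16), *Sox7* (-1.93 ± 0.56) and *Dab2* (-1.39 ± 0.28) fell in EpiLCs (5.09% and 2.96%).

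Other genes of the lineage were read beside these 10. Another 43 primitive endoderm genes in 6 groups were chosen by function, also with earlier results of these data known. Of these 37 could be tested, and *Gata5*, *Tfec*, *Fxyd3*, *Ttr*, *Afp* and *Apoa1* could not, with at most 0.297 CPM in any library. In QKO EpiLCs 2 of the 37 rose and 6 fell (13% and 8.16% of all genes), with a median log2 fold change of -0.32. Those that rose were *Fgfr4*, an FGF receptor (1.53 ± 0.18), and *Srgn*, the proteoglycan serglycin (1.82 ± 0.36). *Amn*, the membrane anchor of the cubilin uptake receptor, fell (-2.32 ± 0.38), as did *Pdgfrb*, the other PDGF receptor (-1.90 ± 0.26), *Rbp4*, a retinol carrier of visceral endoderm (-1.23 ± 0.35), and *Plat*, the plasminogen activator of parietal endoderm (-1.08 ± 0.26). *Thbd* and *Bmp2*, under 1 CPM, also fell. None of the 10 basement membrane genes and none of the 3 transcription factor genes tested (*Foxa2*, *Foxq1*, *Sox18*) passed in QKO EpiLCs.

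**Figure D5:**
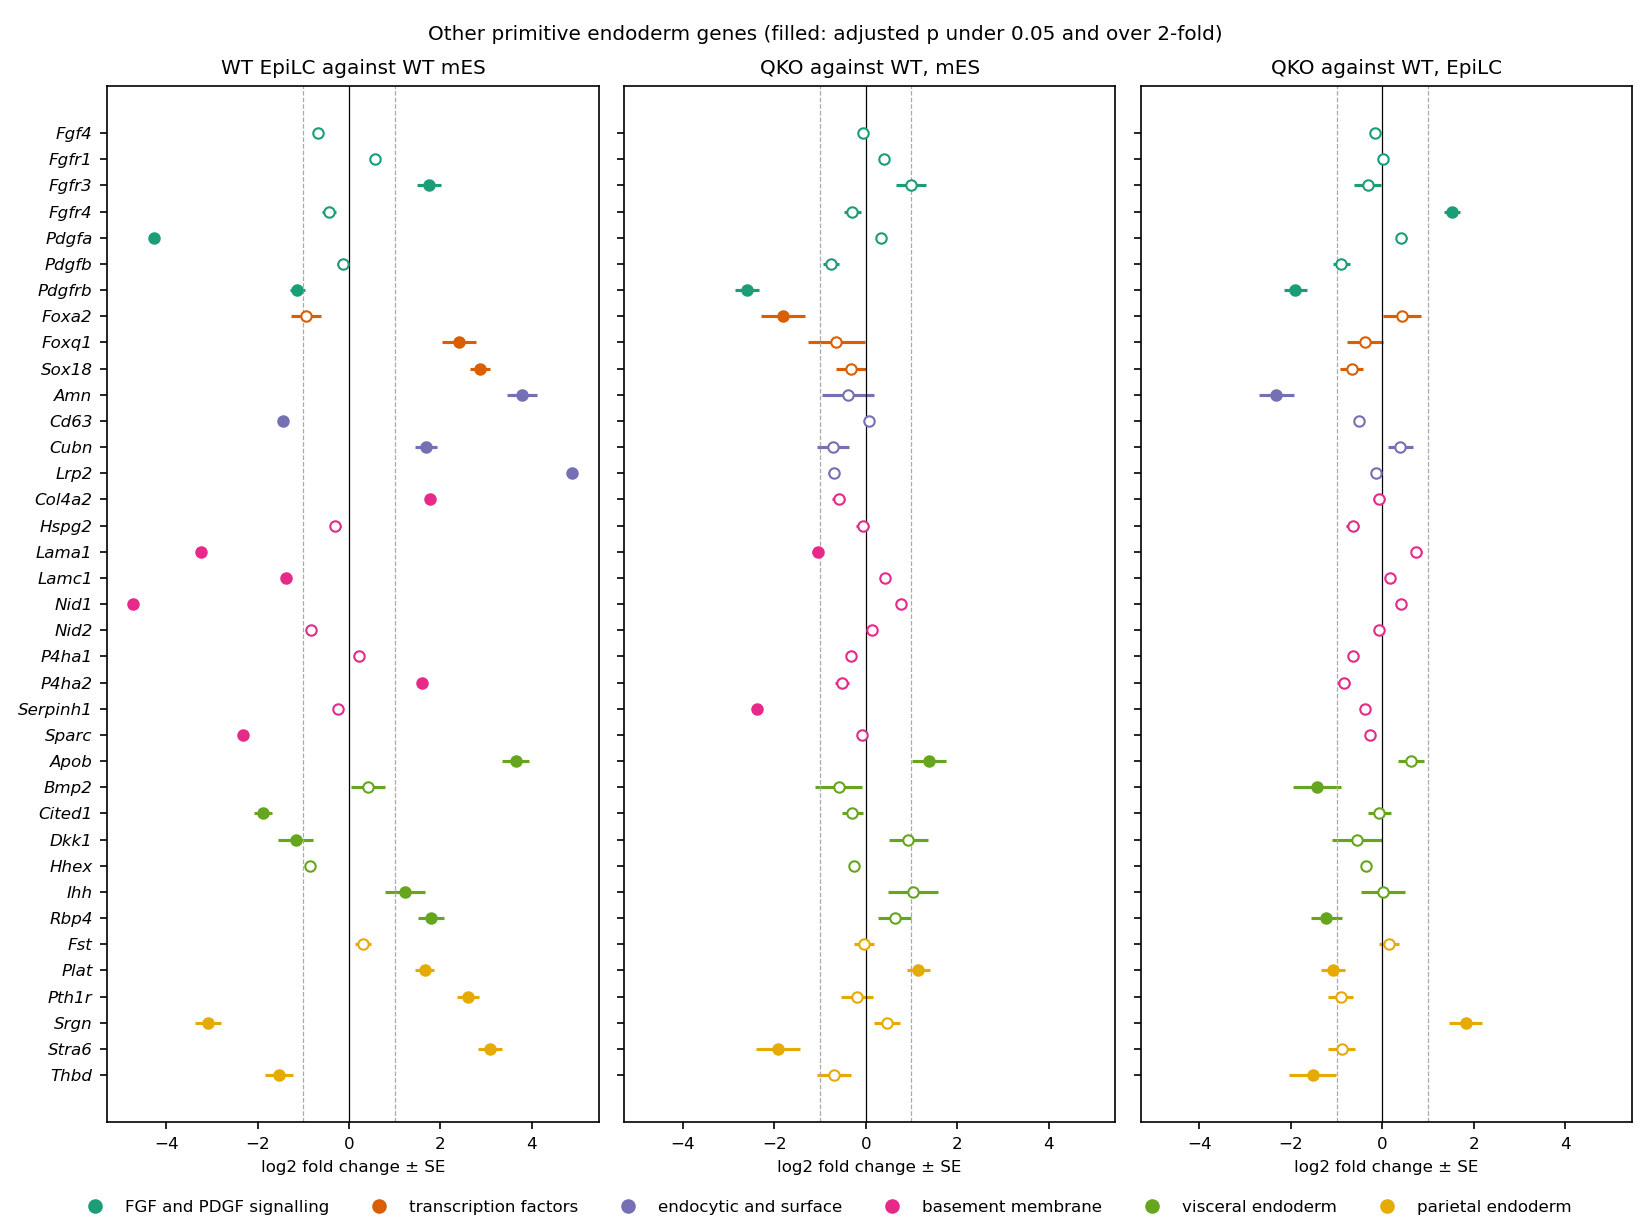
Log2 fold change ± SE of 37 further primitive endoderm genes in the WT passage (left) and in QKO against WT in mES cells (middle) and EpiLCs (right). Colours are the 6 groups, and filled points passed an adjusted p under 0.05 and a 2-fold change (dashed lines). The WT passage moved 25 of the 37, and QKO EpiLCs moved 8, of which *Fgfr4* and *Srgn* were higher.

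In mES cells 2 of the same 37 genes were higher and 5 lower in QKO (10.6% and 6.66% of all genes were), 3 and 1 in LBRKO (3.06% and 3.25%), and none and 3 in TKO (2.68% and 3.77%). *Serpinh1*, the collagen chaperone HSP47, fell from 102 CPM in WT to 19.6 CPM in QKO (-2.38 ± 0.09, adjusted p = 8.47e-25), and *Lama1*, the laminin α1 chain that joins LAMB1 in endoderm laminin, fell from 151 to 72.9 CPM (-1.05 ± 0.12). *Pdgfrb* fell in TKO (-2.86 ± 0.26) and in QKO (-2.60 ± 0.26). *Col4a2*, the partner of *Col4a1*, rose in LBRKO at both stages (1.16 ± 0.13 and 1.25 ± 0.12). Its QKO changes were under 2-fold (-0.59 ± 0.15 in mES cells and -0.08 ± 0.13 in EpiLCs).

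The WT passage split the basement membrane genes. *Lamb1*, *Col4a1*, *Col4a2* (1.76 ± 0.11) and *P4ha2*, a collagen prolyl hydroxylase, rose, and *Nid1*, the linker nidogen 1 (-4.72 ± 0.08), *Lama1* (-3.23 ± 0.10), *Sparc*, a collagen-binding matrix protein (-2.31 ± 0.06), and *Lamc1*, the laminin γ1 chain (-1.38 ± 0.05), fell. Naive mES cells had 502 CPM of *Nid1* and 151 CPM of *Lama1*, and WT EpiLCs 19.0 and 16.1. Of the uptake genes *Lrp2*, the megalin receptor, rose from 19.7 to 577 CPM (4.87 ± 0.10) and *Amn* and *Cubn* rose with it. *Pdgfa*, the ligand of PDGFRA, fell from 97.4 to 5.05 CPM (-4.27 ± 0.10), and was higher in LBRKO EpiLCs than in WT, at 11.0 CPM (1.13 ± 0.12). Over the 37 genes 14 rose and 11 fell (18.2% and 12.9% of all genes did).

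Markers of other cell types were detected at both stages and moved in some mutants. The summed level of 6 trophectoderm markers (*Cdx2*, *Elf5*, *Gata3*, *Tfap2c*, *Eomes*, *Krt7*) was 25.3 to 27 CPM in QKO EpiLCs, 10.8 to 13.5 in WT, 8.81 to 10.7 in LBRKO and 11.9 to 15.4 in TKO. *Eomes*, which is also a gene of the mesendoderm and visceral endoderm, made up most of it (21.4 ± 0.973 CPM in QKO against 7.93 ± 1.00 in WT, 1.43 ± 0.09), and *Gata3* rose too (2.09 ± 0.25), while *Cdx2* and *Elf5* were at or under 0.393 CPM in every EpiLC library of WT and QKO. The 6 mesendoderm markers summed to 2.21 to 3.02 CPM in QKO EpiLCs and 2.5 to 3.79 in WT, the 7 fibroblast markers to 9.89 to 10.3 and 18.6 to 24.1, the 5 endothelial and blood markers to 16.8 to 20.6 and 13.5 to 16.9, and the 3 neural markers to 16.1 to 20.8 and 23.0 to 43.5. The neural sum was 45.9 to 57.6 CPM in LBRKO EpiLCs and 45.8 to 58.1 in TKO EpiLCs. In mES cells the trophectoderm sum was lower in QKO (44.8 to 51.9 CPM) than in WT (78.4 to 98.7), with LBRKO and TKO at 73.8 to 82.2. The fibroblast sum was higher in LBRKO mES cells (5.90 to 6.66 CPM) than in WT (2.61 to 3.89), as was the mesendoderm sum (12.6 to 14.9 against 7.46 to 10.3). These sums do not show that cells of the named types were present. The endothelial and blood sum was 88.7 to 144 CPM over all mES libraries and 13.5 to 24.1 over all EpiLC libraries, so it differed by stage in every genotype. QKO and LBRKO EpiLCs also had naive marker RNA left and lower epiblast marker sums, as given above. The part of any of these in the changes of the 10 genes at either stage was not tested.

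The intron readout could be tested for 6 of the 10 genes, those with enough reads in TE copies of their introns. In the WT passage it rose for *Lamb1* (3.63 ± 0.22), *Col4a1* (3.07 ± 0.38), *Dab2* (1.77 ± 0.54) and *Fgfr2* (1.02 ± 0.35), of which the first 3 also rose in exons (20.8% of all 15475 genes rose, 10.9% fell). In LBRKO mES cells it rose for *Dab2* (1.85 ± 0.61) and *Col4a1* (1.81 ± 0.46), as the exons did (3.43% rose). In TKO mES cells it fell for *Lamb1* (-1.90 ± 0.38) besides *Fgfr2* (7.01% rose and 1.32% fell). *Pdgfra* introns rose in QKO at both stages (1.65 ± 0.72 and 1.82 ± 0.75, adjusted p = 0.0406 and 0.0302), but so did those of 36.8% and 37.2% of all genes (1.62% and 1.54% fell), with medians of 0.85 and 0.84, and with copies at least 100 bp from exons *Pdgfra* had too few reads to be tested. *Gata4*, *Col4a1*, *Lamb1* and *Dab2*, whose exon counts fell in QKO mES cells, had intron changes of 0.20 ± 0.47, 0.76 ± 0.57, -0.60 ± 0.32 and -0.92 ± 0.90 there, none of which passed. Among copies at least 100 bp from exons, those in the gene's own orientation held 38.0% of the intron counts. Copies of both orientations were summed.

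The pattern of each gene but *Fgfr2* over the 40 libraries was set beside those of all well-named tested genes, by Pearson's r of log2 CPM, as a description with no test, since libraries of a group share their genotype and stage. The 3 most alike were *Ccng1*, *Mdm2* and *Trp73* for *Gata6* (r = 0.87 to 0.85), *Fam78a*, *Magea4* and *Tspan32* for *Hnf4a* (0.92 to 0.90), and *Dcaf10*, *Iffo1* and *Fsd1l* for *Pdgfra* (0.86 to 0.81). For *Dab2* they were *Satb1*, *Greb1* and *Stk26* (0.96 to 0.94), for *Gata4* *Adcy3*, *Serpinh1* and *Ece1* (0.92 to 0.89), and for *Sox7* *Pnma2*, *Dtx3* and *Tenm3* (0.88 to 0.84). *Col4a1* and *Lamb1*, which follow the stage, had the closest neighbours (*Them6*, *Crmp1* and *Zyx* at 0.98, and *Usp44*, *Lmo4* and *Galnt3* at 0.99), and *Sox17* the most distant (*Slbp*, *Rrs1* and *Dkc1*, 0.68 to 0.62). Among the 10 genes themselves the highest r was between *Col4a1* and *Lamb1* (0.94), and *Pdgfra* and *Hnf4a* stood at 0.80. The highest r of *Gata6* with any other of the 10 was 0.41, with *Lamb1*.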

How the data were processed

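The authors trimmed reads with cutadapt 2.5, aligned them to GRCm39 with STAR 2.7.10a, kept unique alignments and deposited raw read counts per gene, made with featureCounts 1.6.4 on GENCODE M30. The strand setting of the counting is not given in the sources used here. They also deposited counts per TE copy, and counts that allow multimapped reads. The latter were made with TEcount after alignment by other STAR settings. Libraries were made with a ribosomal RNA depletion kit and held 22.6 to 48.9 M counts.

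The deposited counts were fitted in edgeR 4.0.16 (R 4.3.3) by the quasi-likelihood test, with TMM scaling, filterByExpr and 1 mean per group over all 40 libraries. The WT libraries are shared by every comparison with WT. Genes were called at a Benjamini-Hochberg adjusted p under 0.05 and a fold over 2. Gene names and exons came from GENCODE M39, which named 56017 of 56748 identifiers. Exon lengths differed from those counted on M30 (for *Fgfr2* 11336 bases against 10.328 kb), so exon overlaps may differ too. Alternatives were DESeq2 1.42.0, other scalings and filters, WT replicates 1 to 4 or 5 to 8, the multimapped counts, a replicate block, and leaving out each library. The fit was tested on simulated counts. The 10 genes and the other lists were chosen with earlier results of these data known. Of the further lists, those named were at most 4 a list with the largest changes among genes past both thresholds and at 1 CPM or more in the higher group. Other genes named beside them were chosen after their values were seen. Some items are not reported here.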

Additional observations from a re-analysis of the deposited data

Results flagged for a closer look

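Of 80 groups of libraries examined for a library far from the others, 2 held one, where chance gives about 1 in 20 groups. *Hnf4a* in LBRKO mES replicate 3 was at 2.91 CPM, with the others at 2.00 to 2.08. *Hnf4a* in TKO mES replicate 4 was at 0.840 CPM, with the others at 1.41 to 1.5.

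In 21 cases the effect of one factor differed with another by the interaction test in edgeR. The passage from mES cells to EpiLCs in QKO exceeded that in WT for *Fgfr2* (4.67 ± 0.26, log2 ± SE, adjusted p = 6.61e-18), *Hnf4a* (3.21 ± 0.33, 2.62e-10), *Gata6* (2.58 ± 0.45, 1.35e-05), *Pdgfra* (1.76 ± 0.39, 4.18e-04) and *Gata4* (1.39 ± 0.18, 6.11e-08). In TKO it exceeded WT for *Fgfr2* (2.80 ± 0.23, 4.21e-12), *Dab2* (2.26 ± 0.31, 1.33e-06) and *Lamb1* (1.15 ± 0.12, 9.78e-10). In LBRKO it exceeded WT for *Fgfr2* (2.87 ± 0.22, 7.61e-13) and *Hnf4a* (1.44 ± 0.33, 0.00149) and was below it for *Dab2* (-2.79 ± 0.27, 1.12e-10) and *Sox7* (-1.46 ± 0.48, 0.0292).

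QKO differed from the sum of the LBRKO and TKO changes in mES cells for *Sox7* (-5.05 ± 0.75, adjusted p = 1.71e-06, a fitted value that depends on the prior count, since QKO held 2 reads in all), *Dab2* (-2.75 ± 0.41, 1.46e-06), *Col4a1* (-2.14 ± 0.19, 7.00e-12) and *Gata4* (-1.88 ± 0.19, 5.67e-10). In EpiLCs it differed for *Gata6* (1.84 ± 0.46, 0.00224), *Pdgfra* (1.75 ± 0.45, 0.00313), *Sox7* (-1.93 ± 0.56, 0.00942), *Dab2* (-1.39 ± 0.28, 2.04e-04) and *Col4a1* (-1.22 ± 0.16, 9.11e-08). The causes were not tested.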

How the results depend on the processing

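Over the values of single genes under all alternatives, 8387 kept their side of the thresholds, 30 lost a call, 75 gained one and none that was called turned its direction. Without the fold threshold the number of the 10 genes changed was 6 in TKO mES cells, 4 in QKO against TKO mES cells, 5 in LBRKO EpiLCs, 2 in TKO EpiLCs and 8 in QKO EpiLCs. QKO against TKO in mES cells had 1 with the multimapped counts (*Sox7*, with *Fgfr2* at -0.16) and 1 with only the groups compared (*Fgfr2*), where *Sox7*, *Sox17* and *Gata6* did not pass the filter on low counts. With intronic TE copies at least 100 bp from exons, QKO had 1 in mES cells and 0 in EpiLCs, *Pdgfra* being untested there for lack of reads. With the multimapped counts *Fgfr2* also fell under 2-fold in the passage of TKO (0.84) and LBRKO (0.87) against WT.

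Leaving out each library in turn gave 5 to 6 genes for the WT passage, 5 to 6 for LBRKO, 3 to 3 for TKO and 6 to 8 for QKO mES cells, 2 to 3 for QKO against TKO mES cells, 1 to 1, 0 to 0 and 5 to 5 for LBRKO, TKO and QKO EpiLCs, and 5 to 5 for QKO against TKO EpiLCs. It gave 5 to 6, 3 to 3 and 3 to 4 for the passage of QKO, TKO and LBRKO against WT, and 4 to 5 at both stages for QKO beyond the sum of LBRKO and TKO. *Sox7* in the WT passage fell just under 2-fold without WT mES replicate 2, 3 or 4 (0.96 to 0.97), and *Pdgfra* without replicate 7 of WT mES cells (-0.99) or EpiLCs (-0.94). With WT replicates 1 to 4 alone *Lamb1* in the passage of TKO against WT was at 1.00, just under 2-fold, and *Pdgfra* passed in TKO mES cells (1.06).

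The replicate numbers were not taken to pair the libraries, since between no 2 groups did every same-numbered pair have a correlation of deviations over 0.1. Over 116 pairs it ran from -0.28 to 0.45 (median 0.02), 28 were over 0.1, and replicate 1 of the EpiLC groups stood at 0.19 to 0.31. The replicate block lost *Hnf4a* in QKO mES cells (0.96) and gained *Gata4* (1.01) and *Sox7* (1.05) in LBRKO mES cells, *Pdgfra* in QKO mES cells (1.02) and *Sox17* in QKO beyond the sum in mES cells (-1.80). The median of all genes moved by up to 0.15 (log2) among the alternatives in QKO EpiLCs. Depth limits *Sox7*, *Sox17*, *Gata6*, *Pdgfra* and *Hnf4a*, with under 50 reads in most libraries.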
